A study of Bos taurus with 12 samples.

Results

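The S100 family of bovine endometrium was followed at days 3 and 7 of the cycle, with the calgranulins S100A8, S100A9 and S100A12 set against S100A1, S100A2, S100A4, S100A10, S100A11 and S100A13. Members were selected by gene symbol in the annotation of the array. The 10 symbols were put together, and the calgranulins set apart, with earlier results on the signals of these same arrays in all 4 groups known. Of the 10 symbols, 9 had a probe set and S100A6 was not analysed here. These were 9 of 9155 genes with a symbol of their own on the array, and together they had 12 of 24016 probe sets, 4 for calgranulins and 8 for other S100 genes.

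S100 proteins are small calcium-binding proteins of the EF-hand type that act as dimers inside the cell and, for some members, as signals outside it. S100A8 and S100A9 form calprotectin, which withholds metal ions from microbes, and S100A12 is a related protein of granulocytes. The calgranulins are abundant in neutrophils and monocytes and are also made by squamous and inflamed epithelium, and outside the cell they are bound by TLR4 and by AGER, the receptor RAGE. Most of these roles are known from human and mouse.

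Simmental heifers with a synchronized cycle were sampled by cytobrush in the cycle before an in vitro-produced blastocyst was transferred. High receptive (HR) endometrium came from animals with a detectable embryo after the transfer and low receptive (LR) endometrium from animals with none, so that the groups HR3, LR3, HR7 and LR7 differ in day of the cycle and in later pregnancy. All animals were of this breed and had been synchronized. Each group had 3 pools of RNA, each from 5 biopsies and hybridized to 1 array, so that the spread within a group is that between pools and not between animals. Whether the same heifers stand behind the pools of both days is not given in the sources used here.

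Signals are log2 values made by the PLIER method, so that 1 unit is a doubling. Array medians lay between 6.64 and 6.77 and mark the range in which signals become uncertain. Probe sets entered the test if they varied by a standard deviation of 0.2 or more across the 12 arrays and lay above the array median on every array of at least 1 group, which held for 7336 probe sets. All 4 calgranulin probe sets and 7 of the 8 others were among them. One second probe set of S100A1 was left out. Both probe sets of S100A9 were admitted through the day 7 groups alone, S100A8 through all groups but HR3, the first of S100A1 through the day 7 groups, and the rest through all 4 groups. Differences and standard errors (SE) are from limma with one mean per group, and "rose", "fell" and "passed" stand for an adjusted p under 0.05 over the 7336 probe sets. Standard deviations are over 3 pools. In such bulk samples, more cells of a type and more RNA per cell cannot be told apart. Epithelial genes were well represented in all pools, with a summed log2 signal of 12 uterine epithelium markers between 14.82 and 15.23. The spiked dap transcript, a control for target preparation, had a 5' signal that differed from its 3' signal by -2.83 to -2.42 in LR3, -2.64 to -1.37 in HR3, -1.76 to -1.28 in LR7 and -2.36 to -1.54 in HR7 (log2), and its part in the differences below was not tested.

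All 3 calgranulins had the same order of group means, with HR3 lowest, then LR3, LR7 and HR7. S100A8 had log2 signals of 6.58, 5.71 and 7.22 in the HR3 pools and 6.96, 6.95 and 7.86 in LR3, and on the later day 9.95, 10.62 and 9.93 in LR7 and 10.91, 11.73 and 11.34 in HR7. Every day 7 pool lay above every day 3 pool, HR7 lay above LR7 without overlap, and HR3 and LR3 overlapped. From day 3 to day 7 the signal rose by 4.82 (SE 0.37), a 28.3-fold change, in HR and by 2.91 (SE 0.37), a 7.52-fold change, in LR. Only 1 of 3 HR3 pools lay above the array median, so the size of the change in HR is imprecise.

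S100A12, the calgranulin also known as EN-RAGE, had 7.47, 7.28 and 7.50 in HR3 and 7.91, 7.78 and 9.05 in LR3. At day 7 it had 11.28, 11.91 and 11.16 in LR7 and 12.04, 13.09 and 12.43 in HR7. No neighbouring groups overlapped, with LR3 replicate 3 standing more than 1 unit above the other LR3 pools. The signal rose by 5.10 (SE 0.34), or 34.4-fold, in HR and by 3.20 (SE 0.34), or 9.21-fold, in LR.

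S100A9, the partner of S100A8, has 2 probe sets that differ in the size of their change. The first, which represents the gene where a single value is given, gave 6.35, 6.65 and 6.84 in HR3 and 6.93, 6.68 and 7.51 in LR3, and on the later day 7.99, 8.60 and 7.98 in LR7 and 8.95, 9.18 and 8.65 in HR7. The second gave 4.13, 4.0 and 4.39 in HR3 and 4.79, 4.51 and 5.85 in LR3, and on the later day 7.53, 8.23 and 7.13 in LR7 and 8.74, 9.53 and 8.53 in HR7. Both have the group order of S100A8, and only the second separates HR3 from LR3. The change with the day in HR was 2.31 (SE 0.24) by the first and 4.76 (SE 0.37) by the second, or 4.97-fold against 27.1-fold. In LR it was 1.15 (SE 0.24) and 2.58 (SE 0.37). All day 3 signals of the second probe set lay under the array median, as did 2 of 3 HR3 pools and 1 of 3 LR3 pools of the first, so the size of these changes is imprecise.

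**Figure D1:**
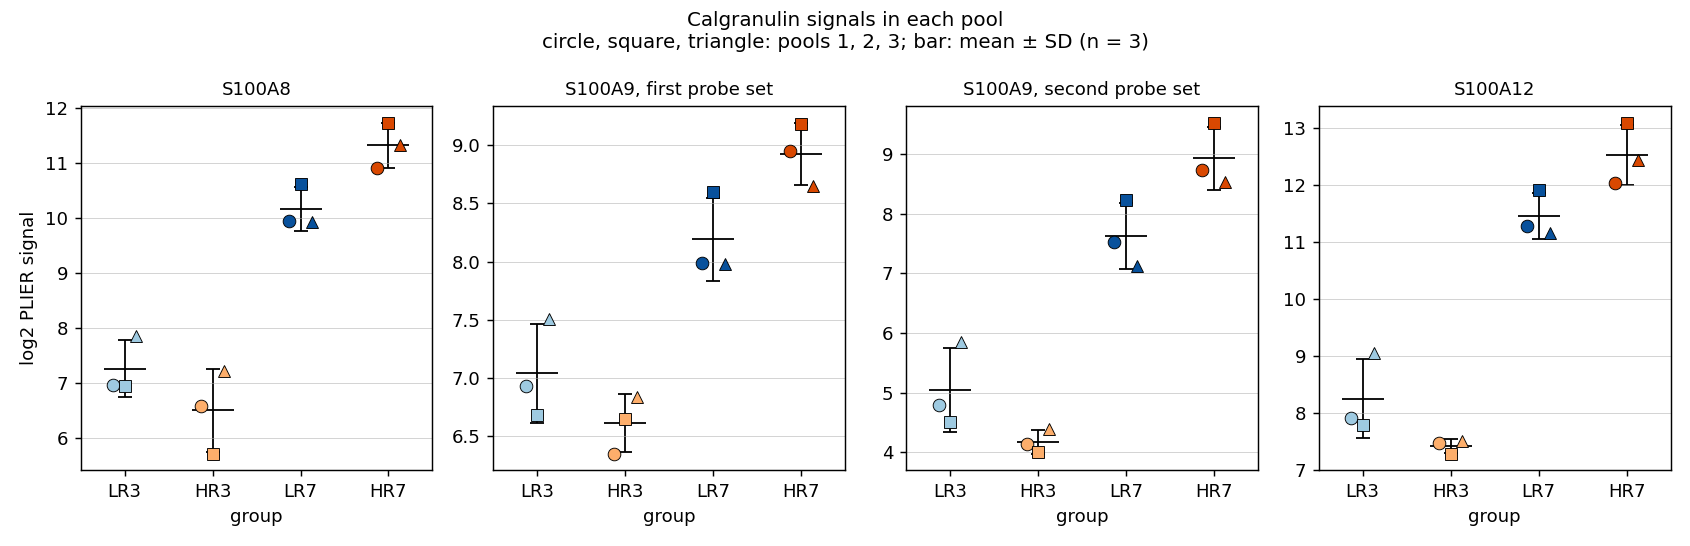
Log2 PLIER signal (vertical axes) of the 4 calgranulin probe sets in the 12 pools by group (horizontal axes), with a symbol for each pool and bars for the mean and SD of 3 pools. In each panel the day 7 pools lie above the day 3 pools, HR7 lies above LR7, and the HR3 mean is the lowest, and each panel has its own scale.

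The calgranulin probe sets also agreed on which pool was high. HR7 replicate 2, LR7 replicate 2, LR3 replicate 3 and HR3 replicate 3 held the highest value of their group in 4 of 4 calgranulin probe sets. Of the 8 other S100 probe sets, 2, 2, 5 and 1 had their highest value in these pools. With 3 values in a group, this order is a description of these pools.

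With regard to receptivity, the calgranulins were lower in HR3 than in LR3 and higher in HR7 than in LR7. At day 3 the difference of HR minus LR was -0.75 (SE 0.37) for S100A8, -0.83 (SE 0.34) for S100A12, and -0.43 (SE 0.24) and -0.88 (SE 0.37) for the first and second probe sets of S100A9. LR3 replicate 3 weighed on all of these values, which were -0.45 for S100A8, -0.43 for S100A12, and -0.19 and -0.48 for S100A9 without it. That of S100A8 was -0.36 without HR3 replicate 2. At day 7 the difference was 1.16 (SE 0.37) for S100A8, 1.07 (SE 0.34) for S100A12, and 0.74 (SE 0.24) and 1.30 (SE 0.37) for S100A9. These amount to 2.23-fold, 2.10-fold, 1.67-fold and 2.47-fold higher signals in HR7.

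In counts, 4 of 4 calgranulin probe sets rose with the day in HR and in LR, where 20.7% of all tested probe sets rose in HR and 22.7% in LR. All 4 were free of overlap between the days, as were 29.0% of all tested probe sets with HR7 higher and 25.4% with LR7 higher. Both probe sets of S100A9 were admitted to the test only through the day 7 groups, so their rises are no support. Their lack of overlap between the days is no support either. S100A8 was admitted through all groups but HR3. HR7 lay above LR7 without overlap in 4 of 4, against 4.93% of all tested probe sets, and HR3 below LR3 without overlap in 2 of 4, against 4.99%. For S100A12 and the second probe set of S100A9 HR pools were below all LR pools at day 3 and above all of them at day 7, which held for 0.136% of the tested probe sets. No calgranulin probe set passed in limma between HR and LR at day 3 (0.0% of all tested passed), at day 7 (0.0682% passed) or for the interaction of receptivity and day (0.0% passed). An unadjusted p under 0.05 was found for 2, 4 and 4 of them, against 516, 331 and 286 of all 7336 tested probe sets. An ordinary linear model with adjusted p values also called none of the 4 in these 3 comparisons. Because the calgranulins were set apart with these values in view, the counts describe these arrays, nothing is read from them, and no p is given for the single genes.

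The change with the day was larger in HR than in LR for each calgranulin. The difference between the changes, HR minus LR, was 1.91 (SE 0.53) for S100A8, 1.90 (SE 0.48) for S100A12, and 1.16 (SE 0.34) and 2.18 (SE 0.52) for S100A9. It adds the lower level in HR3 to the higher level in HR7. Among the 7 other tested S100 probe sets this difference lay between -0.27 and 0.43.

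In the other S100 genes the differences by receptivity were smaller, and the same signs, lower in HR3 and higher in HR7, were found in 4 of 7 tested probe sets, those of S100A2, S100A4 and S100A13 and the second of S100A10. Their HR minus LR differences lay between -0.30 and 0.34 at day 3, with 3 higher and 4 lower, and between 0.07 and 0.39 at day 7, where all 7 were higher in HR7 (also after quantile normalization and after centring of the arrays). Without HR7 replicate 1 the day 7 values of S100A1 and S100A4 turned to -0.06 and -0.01. None passed on either day or for the interaction (0 of 7 each), and 0 had an unadjusted p under 0.05. The medians were -0.01 and 0.20, against 0.01 and 0.00 over all tested probe sets. A test of calgranulins against the other S100 genes was not made, since both sets were chosen from known values. For the same reason the adjusted p values given below for the other S100 genes describe these arrays and are no independent evidence.

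S100A4, which binds nonmuscle myosin and is found in fibroblasts and leukocytes, had the largest change with the day among these genes. Its signal was 9.66, 9.31 and 9.54 in HR3 and 9.56, 10.46 and 9.39 in LR3, and on the later day 12.61, 12.77 and 13.01 in LR7 and 13.19, 12.71 and 12.87 in HR7. Day 3 and day 7 were apart by more than 2 units in every pool, and HR and LR overlapped on both days. It rose by 3.42 (SE 0.25, adjusted p = 7.45e-06) in HR and by 2.99 (SE 0.25, adjusted p = 2.49e-05) in LR, a 10.7-fold and a 7.96-fold change. Its HR minus LR difference was -0.30 (SE 0.25, adjusted p = 0.811) at day 3 and turned to 0.03 without LR3 replicate 2, the one high LR3 pool. At day 7 it was 0.13 (SE 0.25, adjusted p = 0.997).

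S100A10, which does not respond to calcium and joins annexin A2 in a complex at the cell membrane, rose by both probe sets. The first gave 10.93, 11.17 and 11.12 in HR3 and 10.72, 11.22 and 11.09 in LR3, and on the later day 12.27, 12.52 and 12.30 in LR7 and 12.57, 12.60 and 12.56 in HR7. The 3 HR7 pools had an SD of 0.02 and lay above all LR7 pools, and at day 3 the groups overlapped. It rose by 1.5 (SE 0.15, adjusted p = 5.53e-05) in HR and 1.35 (SE 0.15, adjusted p = 0.000125) in LR. The second probe set, which had means of 9.42 in HR3, 9.54 in LR3, 11.14 in LR7 and 11.23 in HR7, rose by 1.81 (SE 0.17, adjusted p = 4.49e-05) in HR and 1.60 (SE 0.17, adjusted p = 0.000123) in LR, and its HR7 and LR7 pools overlapped.

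S100A2, known from basal cells of stratified epithelium, had 12.01, 11.99 and 11.99 in HR3 and 12.24, 11.93 and 12.51 in LR3, and on the later day 12.93, 13.01 and 13.03 in LR7 and 13.46, 13.05 and 13.06 in HR7. It rose by 1.19 (SE 0.16, adjusted p = 0.00035) in HR and by 0.76 (SE 0.16, adjusted p = 0.0043) in LR. HR7 lay above LR7 by 0.20 (SE 0.16, adjusted p = 0.997), by 0.02 between the nearest pools. Without HR7 replicate 1 this difference was 0.06. The order of group means of the calgranulins, from HR3 through LR3 and LR7 to HR7, was also that of S100A2, S100A4 and the second probe set of S100A10, in each of which HR3 and LR3 overlapped.

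S100A13, which takes part in the release of the growth factor FGF1 and of interleukin 1 alpha, went the other way. Its signal was 9.83, 9.86 and 9.39 in HR3 and 9.56, 9.41 and 10.15 in LR3, and on the later day 8.36, 8.52 and 9.26 in LR7 and 9.13, 8.79 and 9.40 in HR7. The LR pools of both days were apart, as in 25.9% of all tested probe sets with LR7 lower, and the HR pools of both days overlapped by a narrow margin. It fell by 0.99 on the log2 scale (SE 0.27, adjusted p = 0.0127) in LR, where 22.0% of all tested probe sets fell. That call was lost without LR7 replicate 1 (-0.82, adjusted p = 0.0532). In HR the difference was -0.59 (SE 0.27, adjusted p = 0.0913), where 20.8% of all tested probe sets fell. The HR difference passed with only HR3 and HR7 in the fit (adjusted p = 0.0433) and with array weights (-0.67, adjusted p = 0.00985), and over all alternatives with the 12 pools its adjusted p ranged from 0.00985 to 0.201. The difference between HR and LR in this change was 0.41 (SE 0.38, adjusted p = 1.0).

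S100A11, a partner of annexin A1, had 12.17, 12.48 and 12.16 in HR3 and 11.73, 11.97 and 12.37 in LR3, and on the later day 12.22, 12.10 and 12.92 in LR7 and 12.95, 12.42 and 12.74 in HR7. Neighbouring groups overlapped throughout, and the differences with the day were 0.43 (SE 0.24, adjusted p = 0.149) in HR and 0.39 (SE 0.24, adjusted p = 0.181) in LR. The latter was 0.14 without LR7 replicate 3 and 0.24 without LR3 replicate 1. S100A1, best known from heart muscle, lay near the array median by its first probe set, with 6.60, 6.98 and 7.30 in HR3 and 6.40, 6.71 and 6.74 in LR3, and on the later day 6.79, 6.90 and 6.95 in LR7 and 7.23, 6.88 and 6.75 in HR7. The difference with the day was -0.01 (SE 0.19, adjusted p = 0.98) in HR and 0.26 (SE 0.19, adjusted p = 0.255) in LR, where the pools of both days did not overlap. Its second probe set ranged from 4.21 to 5.07, under the median of every array.

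**Figure D2:**
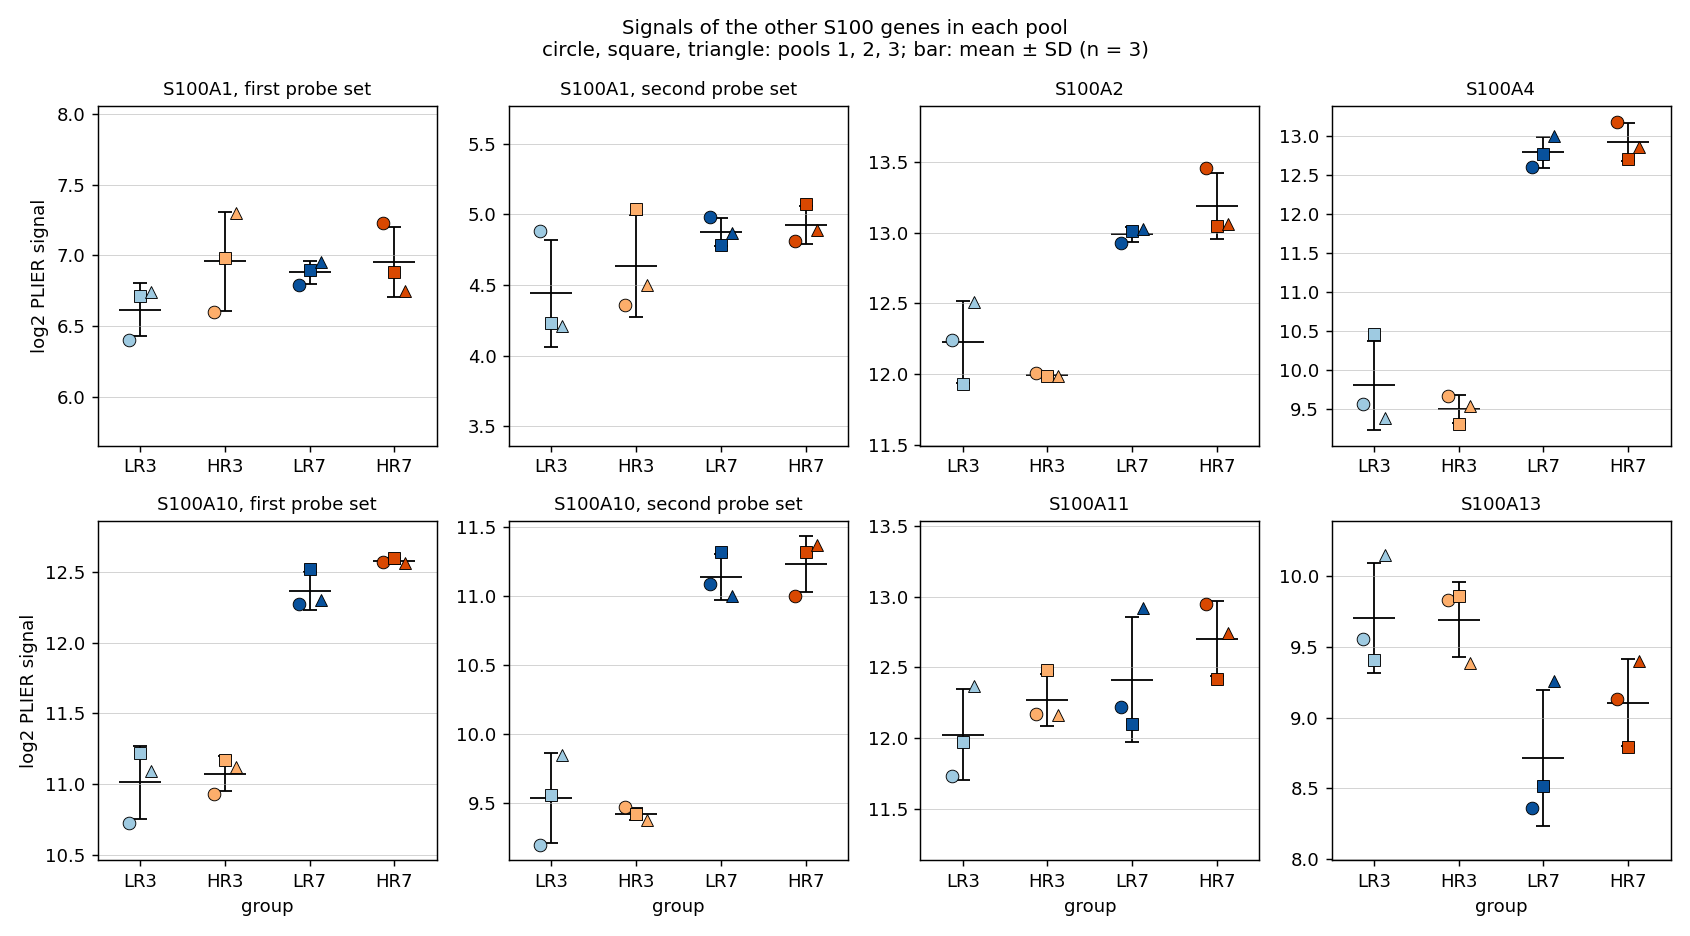
Log2 PLIER signal (vertical axes) of the 8 probe sets of the other S100 genes in the 12 pools by group (horizontal axes), with a symbol for each pool and bars for the mean and SD of 3 pools. S100A4, S100A10 and S100A2 lie higher at day 7 in HR and LR alike, S100A13 has lower means at day 7 with overlap in HR, and S100A11 overlaps between neighbouring groups, and each panel has its own scale.

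Of the 7 tested probe sets of other S100 genes, 4 rose in HR and 4 in LR, namely those of S100A2, S100A4 and S100A10, against 20.7% and 22.7% of all tested probe sets. S100A13 fell in LR, as did 22.0%. The median difference with the day was 1.19 in HR and 0.76 in LR, against -0.06 and -0.10 over all tested probe sets. For the 4 calgranulin probe sets the medians were 4.79 and 2.74. Here too the members were known beforehand, and the counts are not independent evidence. In the plot of differences S100A4 lies among the calgranulins on the side of the day, and on the side of receptivity it lies near the first probe set of S100A9 at day 3 and near 0 at day 7.

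**Figure D3:**
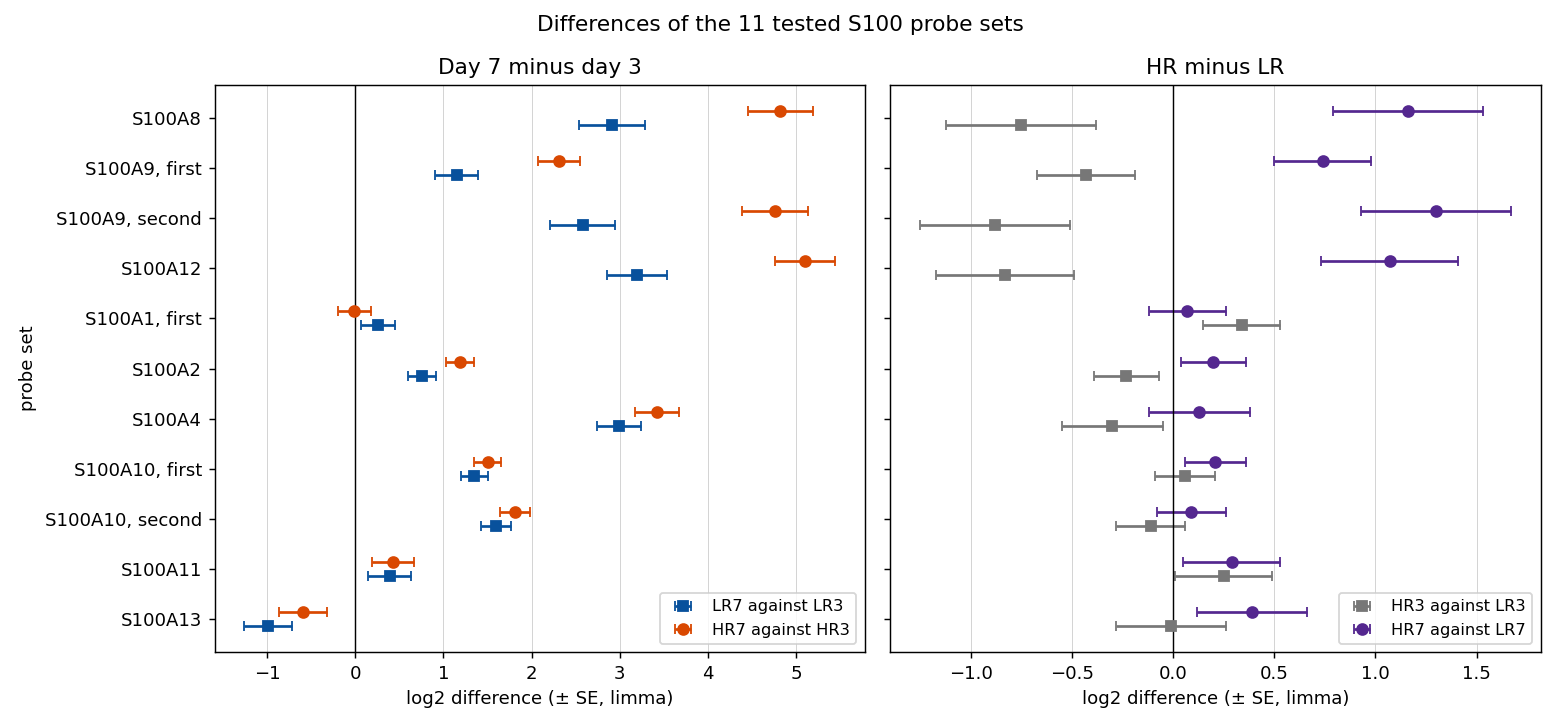
Log2 differences with their SE from limma (horizontal axes) for the 11 tested S100 probe sets (vertical axis), with day 7 minus day 3 on the left for HR (circles) and LR (squares) and HR minus LR on the right for day 7 (circles) and day 3 (squares). The day differences in HR reach from -0.59 for S100A13 to 5.10 for S100A12, and the calgranulins have HR minus LR differences of -0.88 to -0.43 at day 3 and 0.74 to 1.30 at day 7.

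In the bovine reference annotation S100A8, S100A12 and S100A9 follow each other with no other coding gene between them. S100A1 and S100A13 are neighbours at another place of the same cluster, and S100A11 and S100A10 form a pair 27 coding genes beyond S100A9. Neighbours therefore shared their pattern for the calgranulins, whereas S100A10 rose next to S100A11, which did not pass.

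Of 9 further S100 genes, 5 have a probe set and 4 were tested. S100G, the calbindin of calcium transport in uterus and gut, rose from 12.39 ± 0.14 to 13.20 ± 0.05 in HR (difference 0.82, SE 0.16, adjusted p = 0.00329) and from 12.66 ± 0.30 to 13.28 ± 0.19 in LR (0.62, SE 0.16, adjusted p = 0.0122). S100A14, S100A16 and S100B did not pass in any comparison, and S100B varied widely in LR7. S100A7 lay under the array median throughout.

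The genes with the pattern nearest to the mean of the 3 calgranulins were sought among 3774 named genes by the root mean square difference of centred log2 signals over the 12 pools. The nearest were the oxidoreductase of the endoplasmic reticulum ERO1A (0.54), the carbonic anhydrase CA13 (0.57), the interferon-stimulated ISG12(B) (0.58), the mitochondrial ribosomal protein MRPS36 (0.59) and LY6G6E (0.59). By the same measure S100A8 was at 0.37, S100A12 at 0.48, the first probe set of S100A9 at 0.79 and S100A4 at 0.63. ERO1A had means of 5.42 in LR3, 5.0 in HR3, 7.80 in LR7 and 8.08 in HR7, and the range of LR7, from 6.59 to 8.78, spanned that of HR7. All 5 were chosen for their likeness, so that their levels are a description.

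Of 23 genes of binding partners and receptors of S100 proteins 20 have a probe set and 12 were tested. Of these 3 rose and 1 fell in HR, where 20.7% of all tested probe sets rose and 20.8% fell, and 2 rose and 1 fell in LR, where 22.7% rose and 22.0% fell, with median differences of 0.26 and 0.16. CD14, a co-receptor of TLR4, rose by 1.63 (SE 0.41, adjusted p = 0.00954) in HR and 1.22 (SE 0.41, adjusted p = 0.0313) in LR. BSG, a receptor for S100A9 also called EMMPRIN, rose by 0.62 (adjusted p = 0.0206) and 0.91 (adjusted p = 0.00336). The adaptor MYD88 rose in HR by 0.36 (adjusted p = 0.0473), and the adhesion molecule MCAM fell by 0.56 (adjusted p = 0.0218) in HR and by 0.63 (adjusted p = 0.0123) in LR. MCAM was admitted to the test only through LR3, where its mean was highest, so its fall is no support. TLR4 varied too little to be tested, with means between 7.54 and 7.88, and AGER lay under the array median on every array, with means between 3.67 and 5.09. ANXA2, the partner of S100A10, differed by 0.29 (adjusted p = 0.165) in HR and 0.32 (adjusted p = 0.121) in LR. None of the 12 passed between HR and LR.

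Of 14 genes known to induce calgranulins, or made with them in inflammation, 12 have a probe set and 4 were tested. In HR, where 20.7% of all tested probe sets rose, 1 of the 4 rose. This was the neutrophil chemokine CXCL8, with 5.06, 4.72 and 4.73 in HR3 and 4.67, 7.11 and 9.56 in LR3, and on the later day 9.16, 9.05 and 8.01 in LR7 and 10.01, 9.62 and 9.21 in HR7. LR3 replicate 3, in which the calgranulins were highest within LR3, was also the highest for CXCL8. It rose by 4.78 (SE 0.86, adjusted p = 0.00175) in HR and differed by 1.63 (SE 0.86, adjusted p = 0.132) in LR, where the LR3 pools spread over almost 5 units. CXCL8 too was admitted to the test only through the day 7 groups, so its rise is no support. The transcription factor CEBPB differed by 0.02 (adjusted p = 0.96) in HR and -0.45 (adjusted p = 0.139) in LR.

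Neutrophil markers were examined beside the calgranulins. Of 26 neutrophil markers, none of them an S100 gene, 16 have a probe set, 10 of these lay under the array median on every array and none was at 0. The granule genes MPO, ELANE and CAMP were among the 10. The summed log2 signal of the list without LTF, which uterine epithelium also makes, was 9.62 to 9.84 in LR3, 9.74 to 9.78 in HR3, 10.41 to 10.71 in LR7 and 10.57 to 11.43 in HR7. With LTF it was 13.88 to 14.05, 14.04 to 14.05, 14.01 to 14.14 and 14.09 to 14.23, since the sums take the brightest probe set of a gene and that of LTF, at 13.80 to 14.01 on all arrays, varied too little to be tested. Day 7 pools therefore lay above day 3 pools without LTF and HR7 and LR7 overlapped, and HR7 replicate 2 was the highest pool, as it was for the calgranulins. That pool was also the highest for the summed macrophage and monocyte markers (12.33), whereas the neutrophil marker CXCR1 was highest in HR7 replicate 1 (7.91). The sum without LTF mostly followed its brightest genes, CYBB, ITGB2 and NCF1, at 9.91, 9.57 and 8.76 in HR7 replicate 2. Of the 16 markers 11 had a higher mean at day 7 in HR and 12 in LR. MPO, ELANE and CAMP were not among those of HR.

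Of the 4 neutrophil markers tested, LTF by a dimmer probe set among them, 3 rose in HR and 2 in LR, where 20.7% and 22.7% of all tested probe sets rose. CYBB, a subunit of the phagocyte oxidase, rose by 1.36 (adjusted p = 0.00241) and 1.26 (adjusted p = 0.00348), and the leukocyte integrin ITGB2 by 0.78 in either group (adjusted p = 0.0267 and 0.0256). NCF1, a second oxidase subunit, rose by 1.35 (adjusted p = 0.00539) in HR and differed by 0.62 (adjusted p = 0.105) in LR. NCF1 was admitted to the test only through the day 7 groups, so its rise is no support. None of the 4 passed between HR and LR. Of markers not tested, the chemokine receptor CXCR1 had 5.47, 5.26 and 4.67 in LR7 and 7.91, 6.78 and 5.33 in HR7, which overlap. BPI, a granule protein, had means of 5.12 in HR3, 5.27 in LR3, 7.22 in HR7 and 6.98 in LR7. Both were singled out after their values were seen.

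Macrophages also make calgranulins, and of 12 of their markers 8 were on the array and tested. In HR 4 were higher and 4 lower at day 7, with a median of -0.17. Over all 7336 tested probe sets 3434 were higher and 3887 lower, with a median of -0.06. In LR 3 were higher and 5 lower, with a median of -0.15, against 3361 and 3972 over all and a median of -0.10. Of the 8 markers 2 rose and 1 fell in HR, where 20.7% of all tested probe sets rose and 20.8% fell. In LR 2 rose and 0 fell, where 22.7% rose and 22.0% fell. CD68 rose by 2.04 (adjusted p = 0.000215) in HR and 2.0 (adjusted p = 0.000261) in LR, CD14 as given above, and C1QC fell in HR by 1.11 (adjusted p = 0.0332). The summed signal overlapped between all groups, with 11.19 to 12.33 in HR7 and 11.27 to 11.44 in LR7. Squamous and basal epithelium markers, of which 8 of 16 are on the array, 4 under the median throughout and 1 at 0 on some array, had a summed log2 signal of 8.44 to 8.94 in LR3, 8.42 to 8.98 in HR3, 9.47 to 9.74 in LR7 and 11.50 to 12.09 in HR7. Here the HR7 sums lay above those of LR7 without overlap. Of 4 tested markers KRT15 passed between them (3.08, adjusted p = 0.00127), and so did 1 probe set of COL17A1 (2.27, adjusted p = 0.00127), which was admitted to the test only through HR7 and so is no support. The brighter probe set of COL17A1, which the sum takes, had 5.41 to 5.66 in LR7 and 5.66 to 6.26 in HR7. KRT15 and KRT5 made up most of the HR7 sum, with means of 10.70 and 10.39. Of the 8 markers 7 had a higher mean in HR7 than in LR7. PKP1 differed by only 0.09 (adjusted p = 0.997), and KRT14 went the other way, with 6.12 in LR7 and 6.03 in HR7. The keratin KRT5 rose by 4.34 (adjusted p = 0.000351) in HR and 2.64 (adjusted p = 0.00551) in LR. KRT5 was admitted to the test only through the day 7 groups, so its rise is no support either. At day 3 the squamous markers of HR3 and LR3 overlapped, whereas S100A12 and the second probe set of S100A9 did not. The part of leukocytes and of squamous epithelium in the calgranulin signals was not tested.

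**Figure D4:**
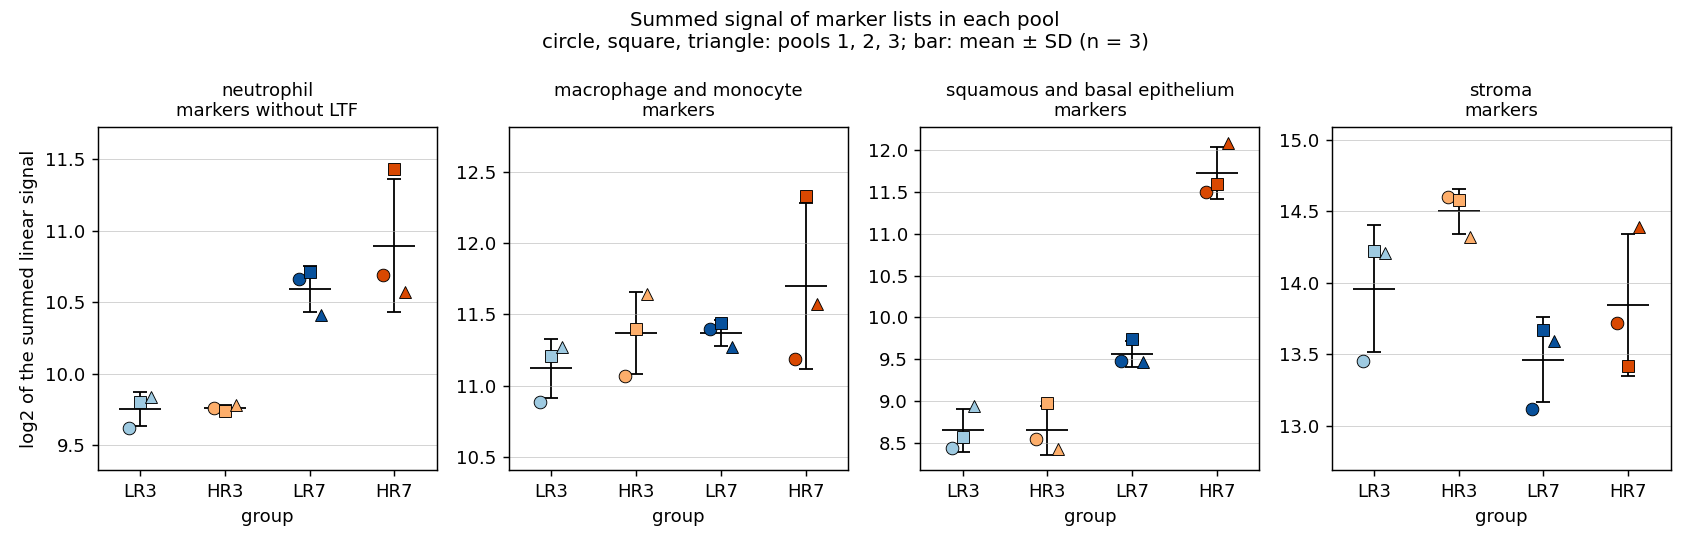
Log2 of the summed linear signal (vertical axes) of 4 marker lists in the 12 pools by group (horizontal axes), with a symbol for each pool and bars for the mean and SD of 3 pools. Neutrophil markers without LTF lie higher at day 7, and HR7 replicate 2 is on top for them and for macrophage and monocyte markers. Squamous markers reach 11.50 to 12.09 in HR7, and stroma markers reach 14.32 to 14.60 in HR3, and each panel has its own scale.

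Of 11 tested stroma markers 3 fell in HR and 3 in LR, where 20.8% and 22.0% of all tested probe sets fell, and their summed signals overlapped between the days. MMP2, which fell in HR, was admitted to the test only through HR3. All 11 stroma markers had a higher mean in HR3 than in LR3, as did 3811 of all 7336 tested probe sets, and none passed. Summed signals were 14.32 to 14.60 in HR3 and 13.45, 14.22 and 14.21 in LR3, so that only LR3 replicate 1 lay far below HR3. This order is opposite to that of the calgranulins at day 3. The part of stroma in that difference was not tested. Of 7 tested T and NK cell markers all 7 had lower means at day 7 in HR and in LR. So did 3887 (HR) and 3972 (LR) of all 7336 tested probe sets. Of the 7 markers 3 fell in either group, beside the 20.8% and 22.0% given above. CD2, which fell in both, was admitted only through LR3, and NKG7, which fell in HR, only through the day 3 groups. Of 8 tested uterine epithelium markers 1 fell in either group, the cadherin CDH1 (-0.41 and -0.42). No tested stroma marker rose with the day, and the part of stroma in the S100A4 signal was not tested.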

How the data were processed

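Endometrial RNA of 12 pools was measured on Affymetrix Bovine Genome arrays. The authors scanned them with GCOS 1.1.1 and global scaling and made PLIER signals in Expression Console. The deposited values are log2 signals with 2 decimals, from 0 to 14.07, and were used as deposited. Further scaling of the table is not given in the sources used here. Groups and pool numbers came from the sample records. The chip annotation gave 13292 of 24016 probe sets 1 gene symbol, 86 several and 10638 none, and 112 control probe sets were left out. Gene order came from the RefSeq annotation ARS-UCD2.0, whose coordinates were not used. The present calls of the study were not used here, and the limit at the array median stands in for them.

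Differences were estimated in limma 3.58.1 (R 4.3.3) from all 12 arrays with Benjamini-Hochberg adjustment over 7336 probe sets in each of 5 comparisons. The study fitted linear models with pregnancy status and day as fixed effects and also computed Benjamini-Hochberg values. For its effect of the time point it gives a limit of p under 0.05 before that adjustment, unlike the limit used here. It names S100A8 and S100A9 among genes higher in HR7 than in LR7, and its text does not state the limit of that comparison. Both genes were also higher in HR7 here, without overlap of the pools, but neither passed at the adjusted limit. Where a gene had several probe sets, that of the highest mean signal stands for it, with the others beside it. For marker lists, sums take the brightest probe set of a gene and tests the brightest that was tested, which differ for ANXA5, ANXA11, LTF and COL17A1. Members, lists and rules were chosen with earlier results of these data known. Named genes are all members, the 5 nearest in pattern, and up to 4 genes of a list that passed, largest difference first. Further genes were named for their role or after their values were seen, as was the neutrophil sum without LTF. Up to 2.05% of values were identical between arrays, so no array was a copy of another. The fit was tested on simulated data. Deviations of pools with the same number correlated at 0.199, 0.211 and 0.463 between LR3 and LR7 and at 0.135, 0.148 and 0.445 between LR7 and HR7, above 0.1 in every pair, but not between HR3 and HR7 (0.118, 0.00209 and -0.0615) or LR3 and HR3 (-0.0822, -0.0301 and -0.47). The pool number was therefore tried as a block. Other alternatives were other filters, normalizations and variance models, an unadjusted p, only the compared groups, and leaving out each pool. The number of arrays limits the precision. Tables and plots were made in Python 3.11.15 with pandas 2.3.3.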

Additional observations from a re-analysis of the deposited data

Results flagged for a closer look

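For S100A12 and the second probe set of S100A9 every HR pool lay on one side of every LR pool at day 3 and on the other side at day 7. S100A12 differed by -0.83 (HR minus LR) at day 3 and by 1.07 at day 7, and the second probe set of S100A9 by -0.88 and 1.30. Without LR3 replicate 3 the day 3 differences were -0.43 and -0.48. All day 3 signals of the second probe set of S100A9 lay under the array median. The interaction of receptivity and day, which tests this difference, passed in limma for 0 of 7336 probe sets, and 286 had an unadjusted p under 0.05. These values were known when the calgranulins were set apart.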

How the results depend on the processing

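The number of S100 probe sets that passed was 0 for HR3 against LR3, 0 for HR7 against LR7, 8 for HR7 against HR3, 9 for LR7 against LR3 and 0 for the interaction. At an unadjusted p under 0.05 the counts for HR3 against LR3, HR7 against LR7 and the interaction were 2, 4 and 4. Over all 7336 tested probe sets they were 516, 331 and 286. Leaving out each pool gave 8 for HR7 against HR3 throughout, 8 to 9 for LR7 against LR3 and 0 for the rest. With the pool number as a replicate block the counts were 0, 0, 8, 9 and 0, and no call of a gene's leading probe set changed. Signals under the array median, as for S100A9 at day 3 and S100A8 in HR3, limit the size of their differences, and 3 pools a group limit all differences. The mean over both probe sets of S100A9 gave 3.54 in HR and 1.87 in LR for the day and 1.02 for HR7 against LR7.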
